A study of Mus musculus with 27 samples.

Results

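WT lung macrophages were compared with WT lung neutrophils, both sorted from the lungs of tumour-free C57BL/6 mice. The comparison took 5 of the 27 libraries of the series by their labels. Macrophages were sorted as CD11c+CD11b- cells (2 libraries, titled WT1 and WT2) and neutrophils as CD11b+Ly6G+ cells (3 libraries, titled WT5, WT6 and WT7). They are called replicates 1 and 2 and replicates 5, 6 and 7 here. The wider study set myeloid cells, epithelial cells and total cells of lungs carrying HKP1 lung cancer cells beside those of WT lungs, and its other 22 libraries were used here only where stated. Lungs were perfused and dissociated, the cells were stained and sorted by flow cytometry, RNA was taken with a kit for small samples, and libraries were made with a TruSeq RNA kit from 16 to 33 ng of total RNA. Both groups are labelled as having no tumour and no transgene is named; the labels' treatment text, injection of HKP1 cells by the tail vein, is the same for all 27 libraries and was taken to describe the tumour lungs. The age, sex and number of the mice are not given in the sources used here, nor whether libraries of 1 group came from separate animals, so the p-values measure the spread between samples, which may be technical.

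Macrophages and neutrophils are the main phagocytes of the lung and differ in almost every habit. Alveolar macrophages live for a long time in the airspace, renew themselves there, take up surfactant lipid and dying cells, and depend on GM-CSF and the nuclear receptor PPARγ. Neutrophils are made in the bone marrow, circulate for a short time, arrive with ready-made granules of proteases and antimicrobial proteins, and respond to chemoattractants within minutes. CD11c (Itgax) is high on alveolar macrophages, CD11b (Itgam) is an integrin chain of neutrophils and monocytes, and Ly6G is a surface protein of mouse neutrophils.

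Levels are in FPKM, in which fragments are scaled by the length of the transcript and by the library's mapped total, so that levels can be set side by side between genes, while differences between these libraries also depend on the scaling, as given below. Read counts were not analysed here and depth could be judged only roughly. Steps between the lowest values put neutrophil libraries at 0.711 to 0.798 of the depth of macrophage replicate 1, and macrophage replicate 2 at 1.05. At least 1 FPKM was reached by 9725 and 9679 genes in macrophages, against 8685, 8615 and 8920 genes in neutrophils. The 10 highest genes held 6.54% and 6.59% of the summed FPKM in macrophages, against 16.5%, 15.1% and 15.5% in neutrophils. Fth1 and S100a9, listed at 0 in all neutrophil libraries as given below, add nothing to the neutrophil values. Log2 values correlated at 0.986 to 0.991 between libraries of 1 group and at 0.630 to 0.652 between groups.

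The populations differed in most of their expressed genes. Of 16024 genes in the table, 10247 reached 1 FPKM in at least 2 of the 5 libraries and were tested with limma on log2(FPKM + 1), a scale that understates the change of low genes. At a Benjamini-Hochberg adjusted p under 0.05, 6273 genes were higher in macrophages (61.2% of those tested) and 2317 were lower (22.6%), 83.8% in all. In 9112 genes (88.9%) the macrophage and neutrophil values did not overlap. A difference of 2 or more on the log2 scale was reached by 1678 higher genes (16.4%) and 615 lower genes (6.0%), and a difference of 4 or more by 177 (1.73%) and 155 (1.51%). The split at 4 or more was thus closer to even than that of all calls.

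The median gene stood 0.81 higher in macrophages on the log2 scale, and the split of the calls depended on the scaling. After quantile normalization the median was 0.12, with 4301 genes higher (42.0%) and 3740 lower (36.5%), so that the higher genes were 53.5% of the calls in place of 73.0%. After upper-quartile scaling the median was 0.32, with 4868 higher (47.5%) and 3311 lower (32.3%), or 59.5% of the calls higher. Differences below are given as deposited. Each list should be read against the median of 0.81 and the background of 61.2% higher and 22.6% lower. Genes with a small difference should be read against that shift.

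**Figure D1:**
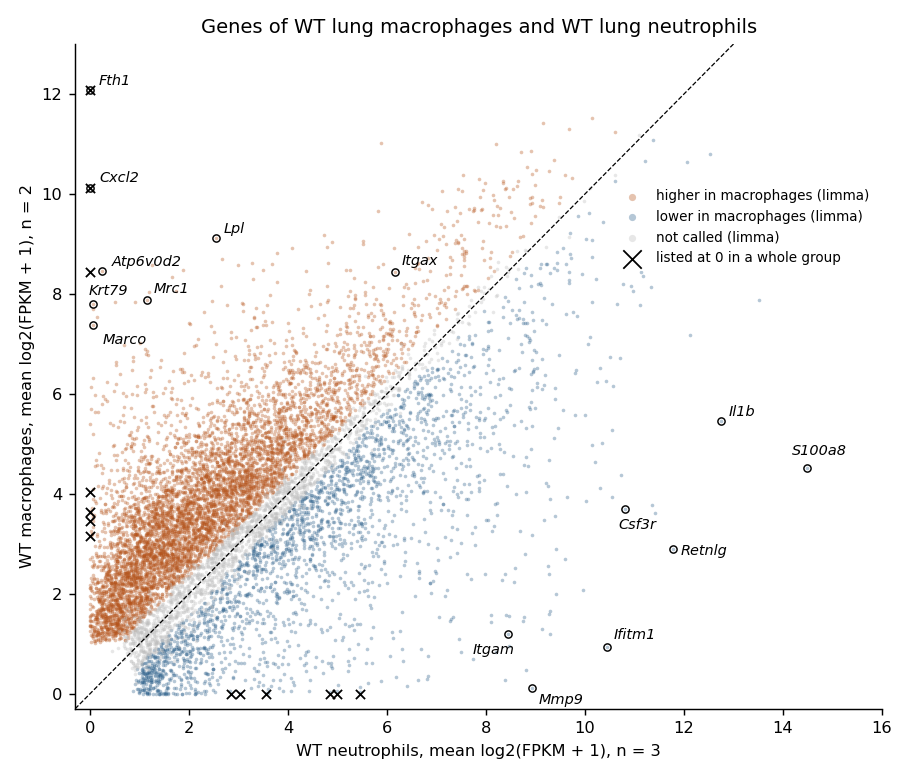
Mean log2(FPKM + 1) of each gene tested in WT macrophages (vertical axis, n = 2) and WT neutrophils (horizontal axis, n = 3), coloured by the limma call, with crosses for genes listed at 0 in every library of a group. S100a8, Il1b and Retnlg lie far to the right of the diagonal, and Atp6v0d2, Krt79 and Marco lie high on the left, near 0 in neutrophils.

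The genes of the sort antigens differed in the direction of the gates, and so did a marker of each cell type that the sort did not use. Itgax, which encodes CD11c, stood at 344 and 349 FPKM in macrophages, against 70.8, 78.1 and 62.4 FPKM in neutrophils (log2 difference 2.29, SE 0.12). Itgam, which encodes CD11b, stood at 1.196 and 1.400 FPKM in macrophages, against 343, 361 and 344 FPKM in neutrophils (-7.25, SE 0.10). The CD11b gate thus separated all 5 libraries without overlap, while CD11c RNA was also present in each neutrophil library. Ly6g was not analysed here. Marco, a scavenger receptor of alveolar macrophages, stood at 155 and 174 FPKM in macrophages, against 0.0203, 0.122 and 0 FPKM in neutrophils (7.30, SE 0.13, limma adjusted p = 1.85e-08). Csf3r, the receptor for the neutrophil growth factor G-CSF, stood at 12.3 and 11.6 FPKM in macrophages, against 1724, 2059 and 1638 FPKM in neutrophils (-7.12, SE 0.12, limma adjusted p = 1.59e-08). Neither marker overlapped between the groups, nor did 88.9% of all genes tested.

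Of 31 listed alveolar macrophage identity genes 24 were measured, and all 24 were higher in macrophages, Fabp1, listed at 0 in neutrophils, among them, against 61.2% of all genes tested, with a median log2 difference of 6.08 against 0.81. Pparg, the nuclear receptor that sets the alveolar macrophage programme, had 122 and 127 FPKM in macrophages, against 0.341, 1.66 and 0.152 FPKM in neutrophils. Lpl, lipoprotein lipase, had 529 and 579.7 FPKM in macrophages, against 5.04, 4.62 and 4.92 FPKM in neutrophils, and Abcg1, a cholesterol exporter, had 308 and 291 FPKM in macrophages, against 12.4, 14.8 and 11.1 FPKM in neutrophils. Each of these genes was low in all 3 neutrophil libraries and nearly equal in both macrophage libraries. Il18, a cytokine of the interleukin 1 family, had 308 and 323 FPKM in macrophages, against 11.8, 8.85 and 6.34 FPKM in neutrophils, and the fatty acid carrier Fabp4 had 123 and 127 FPKM in macrophages, against 9.999, 3.404 and 0.739 FPKM in neutrophils. The smallest differences belonged to Cd9, a tetraspanin, with 2844 and 3017 FPKM in macrophages, against 1228, 1189.6 and 996 FPKM in neutrophils, and to Emr1, which encodes F4/80, with 77.2 and 91.6 FPKM in macrophages, against 24.9, 24.1 and 25.5 FPKM in neutrophils. Cd9 was abundant in neutrophils as well and Emr1 was present there, and their log2 differences of 1.37 and 1.72 were the closest of the list to the median gene.

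Of 35 listed neutrophil identity genes 27 were measured, and 23 of these were lower in macrophages, against 22.6% of all genes tested, with a median of -6.16. Retnlg, a resistin-like secreted protein, had 13.9 and 2.696 FPKM in macrophages, against 3788, 3430.5 and 3387 FPKM in neutrophils. Cxcr2, the receptor through which neutrophils follow CXC chemokines, had 4.24 and 3.09 FPKM in macrophages, against 125, 123 and 101 FPKM in neutrophils. In both genes every neutrophil library lay above both macrophage libraries, while 88.9% of all genes tested had no overlap. Trem1, an activating receptor, had 63.99 and 78.2 FPKM in macrophages, against 1496, 1574 and 1496 FPKM in neutrophils, and Clec4d, a C-type lectin, had 14.96 and 10.7 FPKM in macrophages, against 2738, 2812 and 2329.8 FPKM in neutrophils. The formyl peptide receptors had the smallest differences of the list: Fpr1 was higher in macrophages, with 127 and 131 FPKM in macrophages, against 78.9, 71.2 and 81.8 FPKM in neutrophils (0.73, SE 0.10), a difference below the shift of the median gene, and Fpr2 was lower, with 106 and 125 FPKM in macrophages, against 180.4, 147 and 150.4 FPKM in neutrophils (-0.46, SE 0.13). The other 3 genes called higher, S100a9, Il1r2 and Hdc, were listed at 0 in every neutrophil library and are treated below.

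The 12 largest differences in each direction held genes of both identity lists and others. Atp6v0d2, a subunit of the proton pump that acidifies lysosomes, had 353 and 349 FPKM in macrophages, against 0.126, 0.379 and 0.0843 FPKM in neutrophils, the largest positive log2 difference of all genes not listed at 0 (8.21, SE 0.14, limma adjusted p = 1.59e-08). Krt79 and Krt19 encode keratins, filament proteins of epithelia: Krt79 had 205 and 237 FPKM in macrophages, against 0.0191, 0.0958 and 0 FPKM in neutrophils, and Krt19 had 363 and 402 FPKM in macrophages, against 0.802, 1.15 and 2.48 FPKM in neutrophils. Cidec, which coats lipid droplets, had 171 and 199 FPKM in macrophages, against 0.313, 0.0242 and 0 FPKM in neutrophils. These 4 genes were at or under 2.48 FPKM in each neutrophil library and above 170 FPKM in each macrophage library. F7, coagulation factor VII, had 218 and 239 FPKM in macrophages, against 0.807, 1.23 and 0.664 FPKM in neutrophils, and Car4, a carbonic anhydrase on the cell surface, had 293 and 357 FPKM in macrophages, against 1.45, 1.36 and 4.48 FPKM in neutrophils. Ms4a8a, a membrane protein of the CD20 family, and Hebp1, a heme-binding protein, completed the group with log2 differences of 7.64 and 7.33, beside Marco, Ctsk, Mrc1 and Axl.

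S100a8, an alarmin of the calprotectin complex that binds calcium and zinc, had 25.9 and 18.4 FPKM in macrophages, against 24368, 21819.5 and 22193 FPKM in neutrophils, the largest negative difference of all genes tested (-9.96, SE 0.16, limma adjusted p = 1.52e-08). It was the highest gene of every neutrophil library as listed, while the highest gene of both macrophage libraries was Fth1. Fth1 and S100a9 were listed at 0 in neutrophils, as given below, and could not be ranked there. Ifitm1, an interferon-induced membrane protein, had 1.81 and 0.312 FPKM in macrophages, against 1201, 1277 and 1725 FPKM in neutrophils, and Mmp9, a gelatinase kept in neutrophil granules, had 0.0439 and 0.134 FPKM in macrophages, against 433, 454 and 578 FPKM in neutrophils. Both were close to 0 in macrophages. G0s2, an inhibitor of fat breakdown by adipose triglyceride lipase, had 8.71 and 14.4 FPKM in macrophages, against 2604, 2854 and 2754 FPKM in neutrophils, and Ptgs2, the inducible cyclooxygenase, had 1.69 and 2.44 FPKM in macrophages, against 771, 698 and 436 FPKM in neutrophils. Slc11a1, a metal transporter of phagosomes, had 2.32 and 1.98 FPKM in macrophages, against 589, 715 and 584 FPKM in neutrophils, and Pla2g7, which degrades platelet-activating factor, had 0.618 and 2.72 FPKM in macrophages, against 582, 601 and 504 FPKM in neutrophils. Asprv1, a protease also known from skin, and Rdh12, a retinol dehydrogenase, stood at -8.33 and -8.10 on the log2 scale. H2-Q10, at -8.10, is a class I gene with near-identical relatives, among which the deposited values may have been split. Slfn4, an interferon-induced gene of myeloid cells, is given with its list below.

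**Figure D2:**
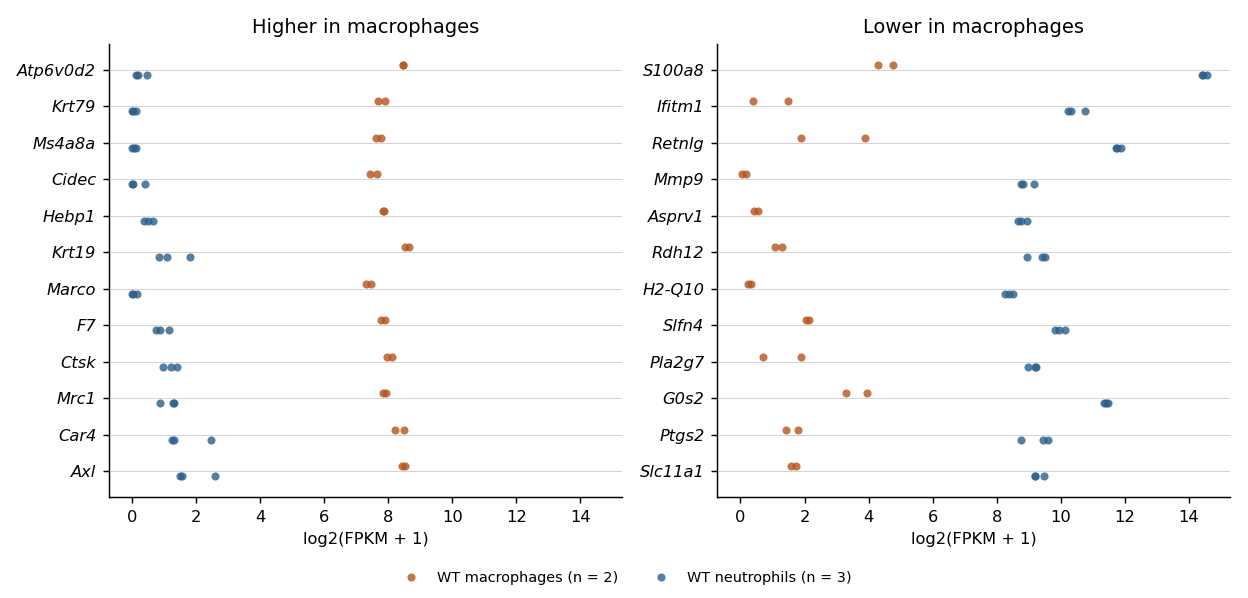
Log2(FPKM + 1) in each library for the 12 genes with the largest positive difference (left) and the 12 with the largest negative difference (right); each point is 1 library of WT macrophages (n = 2) or WT neutrophils (n = 3). The groups do not overlap in any of these genes, as the choice of genes required, and Retnlg differed most between the macrophage libraries.

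Some abundant genes stood at exactly 0 throughout 1 group, and for these the values are given without a fold. Fth1, the ferritin heavy chain, was listed at 0 in all 3 neutrophil libraries and stood at 4212 and 4443 FPKM in macrophages. Cxcl2, a neutrophil-attracting chemokine, was likewise listed at 0 in neutrophils and stood at 1199.6 and 1035 FPKM in macrophages, and Fabp1, a fatty acid carrier, at 357 and 332 FPKM. S100a9, the partner of S100a8 in calprotectin, was listed at 0 in the neutrophil libraries, beside 9.55 and 6.59 FPKM in macrophages and a mean of 15799 FPKM in the neutrophils of tumour lung. Il1r2 and Hdc, a decoy receptor for interleukin 1 and the enzyme that makes histamine, were at 0 in the 3 neutrophil libraries too, with macrophage values under 5 FPKM and tumour neutrophil means of 4347 and 1732 FPKM. In the other direction Olfm4, a neutrophil granule protein, was listed at 0 in both macrophage libraries beside 45.1, 55.9 and 31.8 FPKM in neutrophils. In all, 7 genes with a mean of at least 5 FPKM in macrophages were listed at 0 in neutrophils and 6 the other way round, and their calls are not read as a difference. They do stay in the counts and medians of the gene lists. At any level in the other group, 20 of the 6273 higher genes were at 0 in all neutrophil libraries and 24 of the 2317 lower genes in both macrophage libraries.

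Of 30 tested scavenger and pattern receptors, 17 were higher and 11 lower in macrophages, with a median difference of 0.999 against 0.81. The background was 61.2% higher and 22.6% lower. Mrc1, the mannose receptor, had 226 and 241 FPKM in macrophages, against 1.45, 1.43 and 0.808 FPKM in neutrophils, while the lectins Clec4d and Clec4e were the 2 largest negative differences of the list. Clec4e, which binds mycobacterial glycolipid and dead-cell signals, had 14.4 and 12.8 FPKM in macrophages, against 1075, 1058 and 987 FPKM in neutrophils. Further members were chosen after their values were seen. Cd14, a co-receptor for lipopolysaccharide, had 141 and 148 FPKM in macrophages, against 4959, 4669 and 3814 FPKM in neutrophils. Tlr6, which pairs with TLR2, had 2.78 and 3.35 FPKM in macrophages, against 111, 133 and 113 FPKM in neutrophils. Tlr4, the signalling receptor for lipopolysaccharide, had 27.8 and 28.1 FPKM in macrophages, against 15.6, 12.9 and 10.5 FPKM in neutrophils. CD14 and TLR4, which act on the same ligand, thus differed in opposite directions, at -4.94 (SE 0.14) and 1.06 (SE 0.16), both past the threshold.

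Of 22 tested genes of apoptotic cell uptake, 13 were higher and 8 lower, a share of higher genes close to that of all genes tested, with a median of 1.33 against 0.81. The 4 largest called differences were positive. Axl and Mertk encode kinases that recognise phosphatidylserine through bridging proteins: Axl had 344 and 367 FPKM in macrophages, against 4.98, 1.92 and 1.83 FPKM in neutrophils, and Mertk had 98.1 and 90.9 FPKM in macrophages, against 0.581, 0.325 and 0.424 FPKM in neutrophils. Pros1, protein S, a bridge for these kinases, had 61.9 and 67.9 FPKM in macrophages, against 1.95, 2.26 and 2.09 FPKM in neutrophils, and the integrin chain Itgb5 had 54.9 and 61.8 FPKM in macrophages, against 1.44, 2.22 and 3.03 FPKM in neutrophils. The lower genes included the receptors Cd300a and Stab1, at -3.45 and -2.50, both chosen after their values were seen.

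Genes of lipid uptake, storage and efflux were mostly higher in macrophages: 31 of 40 were higher, Fabp1 among them, against 61.2% of all genes tested. Another 6 were lower, and the median was 2.52 against 0.81. Beside Lpl, Cidec and Pparg, members chosen after their values were seen were Cd36, a fatty acid and oxidised lipoprotein receptor, with 129 and 119.8 FPKM in macrophages, against 16.1, 11.03 and 17.7 FPKM in neutrophils, and Plin2, a coat protein of lipid droplets, with 848 and 895 FPKM in macrophages, against 105, 138 and 96.9 FPKM in neutrophils. The lower genes included enzymes and brakes of triglyceride turnover. Dgat1, which makes triglyceride, also chosen after its values were seen, had 30.9 and 31.5 FPKM in macrophages, against 1292, 1389 and 1193 FPKM in neutrophils, and G0s2 is described above. Cidec and Plin2 were thus higher in macrophages, while Dgat1 and G0s2 were lower, at -5.32 and -7.81 on the log2 scale. After upper-quartile scaling 28 members were higher and 10 lower.

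Synthesis of cholesterol and fatty acids was higher in macrophages in 24 of 32 genes and lower in 5, against 61.2% and 22.6% of all genes tested. The list median was 1.36 against 0.81. Fdps, which makes farnesyl pyrophosphate, had 28.6 and 38.9 FPKM in macrophages, against 1.94, 2.76 and 3.44 FPKM in neutrophils, and Srebf1, a transcription factor of lipid synthesis, had 44.3 and 46.5 FPKM in macrophages, against 4.59, 3.57 and 5.87 FPKM in neutrophils. Dhcr7, a late enzyme of cholesterol synthesis, had 10.9 and 11.8 FPKM in macrophages, against 0.539, 0.458 and 1.03 FPKM in neutrophils, while Sc5d, the enzyme that acts just before it, had 4.51 and 5.61 FPKM in macrophages, against 38.2, 49.4 and 43.7 FPKM in neutrophils. These neighbours in 1 pathway differed in opposite directions, at 2.89 (SE 0.18) and -2.88 (SE 0.15).

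Lysosomal enzymes and proton pump subunits were higher in 35 of 45 genes and lower in 7, against 61.2% and 22.6% of all genes tested. The list median was 1.67 against 0.81. Ctss, cathepsin S, which trims the class II invariant chain, had 2061 and 2112 FPKM in macrophages, against 54.1, 60.1 and 59.4 FPKM in neutrophils. Ctsk, cathepsin K, a collagen-degrading protease, had 250.1 and 276 FPKM in macrophages, against 1.300, 0.965 and 1.62 FPKM in neutrophils, and Ctsc, cathepsin C, had 381 and 402 FPKM in macrophages, against 24.6, 21.96 and 36.2 FPKM in neutrophils. Ctss was among the most abundant genes of macrophages and was present in each neutrophil library, whereas Ctsk was close to 1 FPKM there. Ctsd, cathepsin D, chosen after its values were seen, had 2464 and 2586 FPKM in macrophages, against 702, 928 and 841 FPKM in neutrophils, so that this protease was abundant in both populations.

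Genes of oxidative phosphorylation and the citrate cycle were mostly higher in macrophages, the second list including cytosolic enzymes. Of 47 subunits of oxidative phosphorylation, 46 were higher and 0 lower, with a median of 1.65. All 22 citrate cycle genes tested were higher, with a median of 1.70. The background was 61.2% higher and 22.6% lower, with a median of 0.81. Atp5g1 and Atp5g3 encode the same protein of the ATP synthase ring: Atp5g1 had 94.6 and 112 FPKM in macrophages, against 10.5, 8.22 and 8.67 FPKM in neutrophils, and Atp5g3 had 349 and 367 FPKM in macrophages, against 36.7, 33.5 and 41.2 FPKM in neutrophils. Ndufa9, a subunit of complex I, had 37.3 and 42.9 FPKM in macrophages, against 4.26, 3.44 and 5.49 FPKM in neutrophils, and Cox7b, a subunit of complex IV, had 72.5 and 76.2 FPKM in macrophages, against 11.4, 8.28 and 10.7 FPKM in neutrophils. Idh1 and Idh2 encode the NADP-dependent isocitrate dehydrogenases of cytosol and mitochondria: Idh1 had 83.5 and 89.3 FPKM in macrophages, against 2.297, 1.96 and 2.38 FPKM in neutrophils, and Idh2 had 55.2 and 52.9 FPKM in macrophages, against 2.51, 2.11 and 5.14 FPKM in neutrophils. On the log2 scale the named subunits stood at 2.77 to 3.37 and Idh1 and Idh2 at 4.77 and 3.76. These differences were well over the shift of the median gene. Under upper-quartile scaling 41 subunits were higher and 2 lower, and 18 citrate cycle genes were higher and 1 lower.

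Ribosomal protein genes moved in the same direction, with 45 of 46 higher and 0 lower, against 61.2% and 22.6% of all genes tested. The list median was 1.73 against 0.81. Rpsa, which also encodes the laminin receptor, had 1326 and 1318 FPKM in macrophages, against 158, 189 and 211 FPKM in neutrophils, and Rpl10a had 557 and 612 FPKM in macrophages, against 86.8, 76.01 and 98.1 FPKM in neutrophils. Rps18 and Rpl35 followed at 2.43 and 2.37 on the log2 scale. Rps9 was the 1 member that did not pass as deposited, at 1288 and 1393 FPKM in macrophages, against 1426, 1709 and 1572 FPKM in neutrophils. These genes have many processed copies in the genome, so that reads may have been shared with pseudogenes. After upper-quartile scaling 44 were higher and 1 lower.

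Cell cycle genes were higher in macrophages in 39 of 46 genes and lower in 5, against 61.2% and 22.6% of all genes tested. Their median was 2.34 against 0.81. Top2a, topoisomerase of dividing cells, had 19.8 and 18.04 FPKM in macrophages, against 0.695, 0.398 and 0.769 FPKM in neutrophils, and Birc5, survivin, which acts at mitosis, had 20.2 and 22.7 FPKM in macrophages, against 0.0939, 0.862 and 0.546 FPKM in neutrophils. Tk1, a thymidine kinase of S phase, had 28.3 and 27.8 FPKM in macrophages, against 0.899, 0.903 and 1.36 FPKM in neutrophils, and the tubulin gene Tubb5 had 162 and 169 FPKM in macrophages, against 9.85, 9.96 and 12.9 FPKM in neutrophils. In Top2a, Birc5 and Tk1 no neutrophil library passed 1.36 FPKM. The groups did not overlap in the 4 genes, which were picked as the largest called differences, nor in 88.9% of all genes tested. Mki67, a proliferation marker chosen after its values were seen, was closer, with 16.7 and 14.3 FPKM in macrophages, against 9.98, 9.57 and 8.98 FPKM in neutrophils (0.65, SE 0.12), and its difference changed sign under quantile normalization. Cdkn2d, an inhibitor of CDK4 and CDK6, also chosen after its values were seen, was lower in macrophages, with 8.05 and 10.7 FPKM in macrophages, against 38.6, 50.2 and 44.7 FPKM in neutrophils.

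Granule and antimicrobial proteins were lower in macrophages in 17 of 20 tested genes, against 22.6% of all genes tested. The 3 others were higher, S100a9 among them, and the median was -5.20. These counts include 2 members listed at 0 in a whole group, of which S100a9 is 1. Lcn2, a siderophore-binding protein of specific granules, had 3.46 and 2.54 FPKM in macrophages, against 639.5, 645 and 779 FPKM in neutrophils. Camp, which encodes cathelicidin, had 1.57 and 0.249 FPKM in macrophages, against 93.8, 266 and 229.9 FPKM in neutrophils, and Ltf, lactoferrin, had 0.447 and 0.0387 FPKM in macrophages, against 70.05, 163 and 119 FPKM in neutrophils. Both were lowest in neutrophil replicate 5, and no neutrophil library overlapped a macrophage library, as in 88.9% of all genes tested. Hp, haptoglobin, which binds free haemoglobin, had 3.75 and 4.82 FPKM in macrophages, against 581, 644 and 618 FPKM in neutrophils. Padi4, the enzyme that citrullinates histones in extracellular traps, had 0.381 and 0.176 FPKM in macrophages, against 111, 121 and 108 FPKM in neutrophils. Azurophil granule proteins are made in precursors in the bone marrow. Mpo, which encodes the azurophil protein myeloperoxidase, had 0.04402 and 0.0105 FPKM in macrophages and 0.1696, 0.155 and 0.303 FPKM in neutrophils, and Elane, neutrophil elastase, had 0 and 0 FPKM in macrophages and 0, 0 and 0.0923 FPKM in neutrophils. Mpo and Elane did not reach the level for testing, and the values of exactly 0 for Elane are given as listed.

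Matrix proteases divided by member: of 17 tested metalloproteases and inhibitors, 6 were higher and 8 lower, against 61.2% and 22.6% of all genes tested. Their median was -0.73 against 0.81. Mmp8, neutrophil collagenase, had 12.5 and 11.2 FPKM in macrophages, against 151, 145 and 156 FPKM in neutrophils, and Adam8, a surface sheddase of leukocytes, had 17.2 and 15.5 FPKM in macrophages, against 1273, 1461 and 1074 FPKM in neutrophils. Mmp19 was the largest positive difference of the list, with 37.7 and 49.2 FPKM in macrophages, against 0.658, 0.359 and 0.563 FPKM in neutrophils (4.86, SE 0.17). Adam8 was the most abundant of these genes in neutrophils.

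Most S100 genes lie in a cluster on chromosome 3 of GRCm38, where members differed in both directions. From the GENCODE annotation, S100a1 (chr3:90511034-90514392), S100a4 (chr3:90603771-90606045), S100a6 (chr3:90612882-90624181) and S100a8 (chr3:90668978-90670035) lie in this order with other S100 genes between them, while S100a11 (chr3:93520488-93526287) and S100a10 (chr3:93555080-93564643) lie farther on. S100a1 had 223 and 237 FPKM in macrophages, against 4.48, 3.796 and 5.42 FPKM in neutrophils, and S100a10, the partner of annexin A2, had 508 and 544 FPKM in macrophages, against 30.6, 26.8 and 28.8 FPKM in neutrophils. S100a6, calcyclin, had 76.5 and 73.9 FPKM in macrophages, against 1231, 1476 and 1434 FPKM in neutrophils. Members chosen after their values were seen were S100a4, with 80.6 and 84.6 FPKM in macrophages, against 9.92, 11.1 and 10.3 FPKM in neutrophils, and S100a11, with 1826 and 1739.7 FPKM in macrophages, against 6215, 5893 and 5642 FPKM in neutrophils. S100a4 and S100a6, at 2.87 (SE 0.11) and -4.18 (SE 0.11), and S100a10 and S100a11, at 4.15 and -1.73, had opposite signs, while S100a1 and S100a13 were both higher, at 5.38 and 2.41, and S100a6 and S100a8 both lower. S100a16, between S100a13 and S100a4, stood at -0.96. Of 10 S100 genes tested, 5 were higher and 4 lower, against 61.2% and 22.6% of all genes tested. The list median was 1.06 against 0.81. Both the 5 and the median include S100a9, listed at 0 in neutrophils, whose call is not read as a difference. The sign of that median is therefore not read either.

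Receptors for chemoattractants were mostly lower in macrophages: 14 of 21 were lower and 4 higher, against 22.6% and 61.2% of all genes tested. Their median was -1.43 against 0.81. Ptafr, the receptor for platelet-activating factor, had 1.74 and 1.73 FPKM in macrophages, against 410.1, 436 and 433 FPKM in neutrophils (-7.29, SE 0.09, limma adjusted p = 1.20e-08). Gpr35, a receptor for a serotonin metabolite, had 4.24 and 4.301 FPKM in macrophages, against 206, 220.4 and 166 FPKM in neutrophils, and Ccr1, a receptor for CCL3 and CCL5, had 48.3 and 45.4 FPKM in macrophages, against 871, 983 and 824 FPKM in neutrophils. Ptafr and Pla2g7, whose product degrades its ligand, were both under 3 FPKM in each macrophage library. Members chosen after their values were seen were C5ar1, the complement C5a receptor, with 77.1 and 88.7 FPKM in macrophages, against 596, 561 and 587 FPKM in neutrophils, and Cxcr4, which holds neutrophils in the marrow, with 97.1 and 121 FPKM in macrophages, against 656, 729.5 and 752 FPKM in neutrophils. After upper-quartile scaling 16 members were lower and 1 higher.

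Among adhesion and migration genes 11 of 27 were higher and 14 lower, against 61.2% and 22.6% of all genes tested. The list median was -0.37 against 0.81. Itgae, the αE integrin chain, had 20.2 and 14.9 FPKM in macrophages, against 0.288, 0.4598 and 0.481 FPKM in neutrophils, and Itgb5 is given above, while Itgam was the largest negative difference. Itgb2, the β chain shared by CD11b and CD11c, chosen after its values were seen, did not pass the threshold as deposited, with 468 and 471 FPKM in macrophages and 437, 438 and 450.2 FPKM in neutrophils. It was called higher with quantile normalization (0.33) and lower with upper-quartile scaling (-0.51).

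Chemokine ligands were higher in macrophages in 11 of 16 genes and lower in 3, against 61.2% and 22.6% of all genes tested. Their median was 1.81 against 0.81. Cxcl2, listed at 0 in neutrophils, is among the 11, and its call is not read as a difference. Ccl17 and Ccl22, ligands of CCR4, had the largest differences apart from Cxcl2: Ccl17 had 51.9 and 75.1 FPKM in macrophages, against 1.28, 0.351 and 1.36 FPKM in neutrophils, and Ccl22 had 50.97 and 51.6 FPKM in macrophages, against 0.674, 0.226 and 1.79 FPKM in neutrophils. Both genes are known in dendritic cells, whose other markers are given below. In bulk RNA, fewer cells of a type and less RNA per cell cannot be told apart. The lower genes were Cxcl3, Ccl4 and Ccl3, the last chosen after its values were seen. Cxcl3, a ligand of CXCR2, had 16.03 and 14.8 FPKM in macrophages, against 591, 439 and 342 FPKM in neutrophils. Ccl4, a chemokine of the same family as CCL3, had 32.5 and 49.5 FPKM in macrophages, against 469, 551 and 442 FPKM in neutrophils. Ccl3, a ligand of CCR1, had 293 and 334 FPKM in macrophages, against 1144, 1461 and 1012 FPKM in neutrophils. CCR1 and 1 of its ligands, CCL3, were therefore both higher in neutrophils.

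The interleukin 1 family was split between interleukin 18 and interleukin 1β. Il1b had 40.6 and 45.3 FPKM in macrophages, against 7318, 6815 and 6573 FPKM in neutrophils (-7.30, SE 0.11, limma adjusted p = 1.46e-08), whereas Il18 was among the identity genes of macrophages. Il1f9, which encodes interleukin 36γ, had 3.61 and 4.07 FPKM in macrophages, against 289, 347 and 324 FPKM in neutrophils, and Il18rap, a chain of the interleukin 18 receptor, had 0.792 and 0.951 FPKM in macrophages, against 123, 103 and 81.6 FPKM in neutrophils. The ligand Il18 was thus higher in macrophages and a receptor chain for it higher in neutrophils. Members chosen after their values were seen were Nlrp3, Casp1, Il1rn and Tnf. Nlrp3, the inflammasome sensor, had 79.8 and 70.3 FPKM in macrophages, against 1257, 1276 and 1091 FPKM in neutrophils. Casp1, the protease that cleaves both cytokines, had 44.1 and 46.3 FPKM in macrophages, against 11.2, 12.1 and 10.2 FPKM in neutrophils. Sensor and protease of 1 inflammasome differed in opposite directions, at -3.99 (SE 0.12) and 1.92 (SE 0.12). Il1rn, the interleukin 1 receptor antagonist, had 87.9 and 93.8 FPKM in macrophages, against 1310.2, 1378 and 1103 FPKM in neutrophils. Tnf, a central inflammatory cytokine, had 256 and 256 FPKM in macrophages, against 106, 111 and 128 FPKM in neutrophils. Of 31 genes of the list, 9 were higher, Il1r2 among them, and 17 lower, against 61.2% and 22.6% of all genes tested. The list median was -1.32 against 0.81.

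Receptors for growth factors and cytokines were higher in macrophages in 4 of 21 genes and lower in 12, with a median of -0.62. All genes tested had 61.2% higher, 22.6% lower and a median of 0.81. Beside Csf3r, Tnfrsf1b, the second TNF receptor, had 52.2 and 51.01 FPKM in macrophages, against 511, 568 and 452 FPKM in neutrophils, and Ifnar1, a chain of the type I interferon receptor, had 12.4 and 10.8 FPKM in macrophages, against 73.3, 68.1 and 52.03 FPKM in neutrophils. Flt3, a receptor of dendritic cell precursors, was the largest positive difference, with 14.7 and 9.83 FPKM in macrophages, against 0.492, 0.1997 and 0.215 FPKM in neutrophils. Csf1r, the receptor for the macrophage growth factor M-CSF, chosen after its values were seen, had 60.9 and 68.8 FPKM in macrophages and 55.2, 62.4 and 65.3 FPKM in neutrophils and did not pass the threshold (0.09, SE 0.12, limma adjusted p = 0.49). Quantile normalization and upper-quartile scaling both turned its sign, to -0.0617 and -0.51.

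Interferon-stimulated genes were lower in macrophages in 19 of 24 and higher in 3, against 22.6% and 61.2% of all genes tested. Their median was -2.37 against 0.81. Slfn4 had 3.09 and 3.39 FPKM in macrophages, against 1115, 901 and 979.7 FPKM in neutrophils. Rsad2, viperin, an antiviral enzyme, had 0.239 and 0.199 FPKM in macrophages, against 116, 98.7 and 82.7 FPKM in neutrophils, and Isg20, an exonuclease, had 1.52 and 2.29 FPKM in macrophages, against 131, 134 and 129 FPKM in neutrophils. Members chosen after their values were seen were Isg15, a ubiquitin-like protein, with 10.7 and 6.85 FPKM in macrophages, against 413, 461 and 358 FPKM in neutrophils, and Irf7, the regulator that amplifies interferon production, with 4.82 and 4.16 FPKM in macrophages, against 106, 106 and 88.5 FPKM in neutrophils. Each of these genes was higher in all 3 neutrophil libraries than in both macrophage libraries, while 88.9% of all genes tested had no overlap. Ifitm1 was the largest difference of the list.

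Subunits of the phagocyte oxidase differed in opposite directions. Cybb, the catalytic subunit gp91phox, had 206 and 205 FPKM in macrophages, against 18.02, 17.3 and 16.6 FPKM in neutrophils (3.50, SE 0.10). Hvcn1, the proton channel that compensates its charge, had 172 and 285 FPKM in macrophages, against 33.5, 16.7 and 24.7 FPKM in neutrophils. Cytosolic subunits chosen after their values were seen went the other way. Ncf1, the organiser subunit p47phox, had 119.9 and 134 FPKM in macrophages, against 434, 406 and 404 FPKM in neutrophils. Ncf4, p40phox, had 43.2 and 45.8 FPKM in macrophages, against 260.1, 276 and 221 FPKM in neutrophils. In both genes each neutrophil library lay above both macrophage libraries, while 88.9% of all genes tested had no overlap. Cyba, the membrane partner of Cybb, had 714 and 796 FPKM in macrophages, against 462, 582 and 482 FPKM in neutrophils, and its difference of 0.57 changed sign after upper-quartile scaling. Ncf1 and Ncf4 stood at -1.70 and -2.47 on the log2 scale, so that they and Cybb, subunits of 1 enzyme complex, differed in opposite directions, each past the threshold.

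Redox genes in the same list were also divided. Prdx1, a peroxide-reducing enzyme, had 455 and 442 FPKM in macrophages, against 13.4, 9.18 and 16.5 FPKM in neutrophils, and Slc7a11, the cystine importer that feeds glutathione synthesis, had 2.14 and 1.68 FPKM in macrophages, against 486, 466 and 363 FPKM in neutrophils. Cat, catalase, chosen after its values were seen, had 53.7 and 54.4 FPKM in macrophages, against 7.98, 6.12 and 10.9 FPKM in neutrophils. Over the list 11 of 25 genes were higher and 11 lower, against 61.2% and 22.6% of all genes tested. The median was -0.30, or -1.11 relative to the median gene.

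Glycolysis genes were evenly split as deposited, with 11 of 26 higher, 11 lower and a median of -0.0040. All genes tested had 61.2% higher, 22.6% lower and a median of 0.81. The list thus stood at -0.82 relative to the median gene. The 4 largest negative differences were those of transporters. Slc2a3, the glucose transporter GLUT3, had 1.02 and 0.858 FPKM in macrophages, against 356, 383 and 321 FPKM in neutrophils. Slc2a6, a lysosomal member of the same family, had 4.89 and 4.62 FPKM in macrophages, against 390.0, 411 and 357 FPKM in neutrophils, and Slc16a3, the lactate exporter MCT4, had 10.2 and 11.4 FPKM in macrophages, against 648, 683 and 697 FPKM in neutrophils. Slc2a1, GLUT1, chosen after its values were seen, had 15.2 and 16.1 FPKM in macrophages, against 119.8, 128 and 89.5 FPKM in neutrophils. Aldoc, an aldolase, was the largest positive difference, with 25.5 and 27.4 FPKM in macrophages, against 0.241, 0.565 and 0.599 FPKM in neutrophils. The median of the list was -0.57 after upper-quartile scaling and -0.23 after quantile normalization.

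The largest eicosanoid differences were those of a leukotriene enzyme on the macrophage side and of Pla2g7 and Ptgs2 on the neutrophil side. Ltc4s, which makes leukotriene C4, had 249 and 282 FPKM in macrophages, against 1.66, 2.17 and 3.39 FPKM in neutrophils (6.32, SE 0.21). Pla2g15, a lysosomal phospholipase, had 128 and 125 FPKM in macrophages, against 4.86, 4.69 and 4.995 FPKM in neutrophils. Pla2g7 and Ptgs2 are given above. Alox5, 5-lipoxygenase, and Lta4h, which makes leukotriene B4, were chosen after their values were seen: Alox5 had 112 and 124 FPKM in macrophages, against 63.01, 60.2 and 63.4 FPKM in neutrophils, and Lta4h had 69.9 and 66.3 FPKM in macrophages, against 19.95, 27.2 and 20.3 FPKM in neutrophils. Of 20 genes 10 were higher and 6 lower, against 61.2% and 22.6% of all genes tested. The median of 0.40 became -0.21 with quantile normalization and -0.03 with upper-quartile scaling.

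Fc and complement receptors and complement factors were evenly divided as deposited, with 6 of 18 higher and 6 lower, against 61.2% and 22.6% of all genes tested. Their median of 0.03 stood at -0.78 relative to the median gene. It became -0.35 with quantile normalization and -0.47 with upper-quartile scaling. Fcgrt, the neonatal Fc receptor that recycles IgG, had 195 and 199 FPKM in macrophages, against 3.03, 4.17 and 4.67 FPKM in neutrophils, and Fcgr1, the high-affinity IgG receptor, had 15.7 and 17.99 FPKM in macrophages, against 0.0454, 0.167 and 0.163 FPKM in neutrophils. Cfb, factor B of the alternative complement pathway, had 29.5 and 30.95 FPKM in macrophages, against 1.01, 0.228 and 1.31 FPKM in neutrophils. All 3 were under 5 FPKM in each neutrophil library.

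Regulators of apoptosis were higher in 9 of 21 genes and lower in 11, against 61.2% and 22.6% of all genes tested. The list median was -0.69 against 0.81. Birc3, an inhibitor of apoptosis that acts in TNF signalling, had 30.1 and 27.3 FPKM in macrophages, against 544, 504 and 408 FPKM in neutrophils. Bcl2l11, the death-promoting protein BIM, had 15.00 and 15.7 FPKM in macrophages, against 188, 189.7 and 165 FPKM in neutrophils, and the death receptor Fas had 14.6 and 14.5 FPKM in macrophages, against 86.4, 93.4 and 70.3 FPKM in neutrophils. Casp8, the initiator caspase downstream of Fas, had 61.2 and 53.7 FPKM in macrophages, against 5.65, 4.95 and 5.64 FPKM in neutrophils. Mcl1, a survival factor of neutrophils chosen after its values were seen, had 345 and 327 FPKM in macrophages, against 968, 1059.9 and 933 FPKM in neutrophils. Birc3, Bcl2l11, Fas and Mcl1 were lower in macrophages, survival and death genes alike, and Casp8 was higher.

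Of 18 iron and heme genes 10 were higher, Fth1 among them, and 8 lower, with a median of 0.97 against 0.81. The share of higher genes was not above the 61.2% of all genes tested, of which 22.6% were lower. Aco1, whose protein senses cellular iron, was higher at 3.44, as was Blvra, a biliverdin reductase of heme breakdown, at 4.92, while Slc11a1, Lcn2, Hp and Ltf were the largest negative differences. Slc40a1, the iron exporter ferroportin, chosen after its values were seen, had 1.21 and 0.587 FPKM in macrophages, against 76.6, 102 and 59.98 FPKM in neutrophils. Ferroportin was therefore close to 1 FPKM in macrophages of normal lung and high in each neutrophil library.

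Antigen presentation genes of class II were higher in macrophages in 8 of 12 and lower in 1, with a median of 1.72 against 0.81. Their share of higher genes was close to the 61.2% of all genes tested, of which 22.6% were lower. With quantile normalization 6 were higher and 4 lower, against 42.0% and 36.5% of all genes. With upper-quartile scaling 7 were higher and 3 lower, against 47.5% and 32.3%. H2-DMa, a chaperone that loads peptides, had 212 and 227 FPKM in macrophages, against 11.9, 8.58 and 12.6 FPKM in neutrophils, and H2-Ab1, a chain of the class II molecule itself, had 926 and 744 FPKM in macrophages, against 110.2, 97.8 and 159 FPKM in neutrophils. H2-DMb1 had 102 and 106 FPKM in macrophages, against 7.49, 7.45 and 15.3 FPKM in neutrophils. Cd74, the invariant chain, chosen after its values were seen, had 2004 and 1709 FPKM in macrophages, against 451, 381 and 637 FPKM in neutrophils. Cd80, a costimulator of T cells, was the 1 lower gene as deposited, with 13.9 and 12.8 FPKM in macrophages, against 150.2, 128 and 80.02 FPKM in neutrophils. The neutrophil libraries also held B cell markers, given below, and the part of B cells in their class II values was not tested. Class I genes showed 5 of 11 higher and 4 lower, against 61.2% and 22.6% of all genes tested. Their median of 0.16, against 0.81, became -0.03 with quantile normalization and -0.43 with upper-quartile scaling. H2-M3 had 20.2 and 18.8 FPKM in macrophages, against 3.61, 5.08 and 3.598 FPKM in neutrophils. The immunoproteasome subunit Psmb8 stood at 1.41, the proteasome activator Psme1 at 1.01 and Nlrc5, a transactivator of class I genes, at -0.96.

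**Figure D3:**
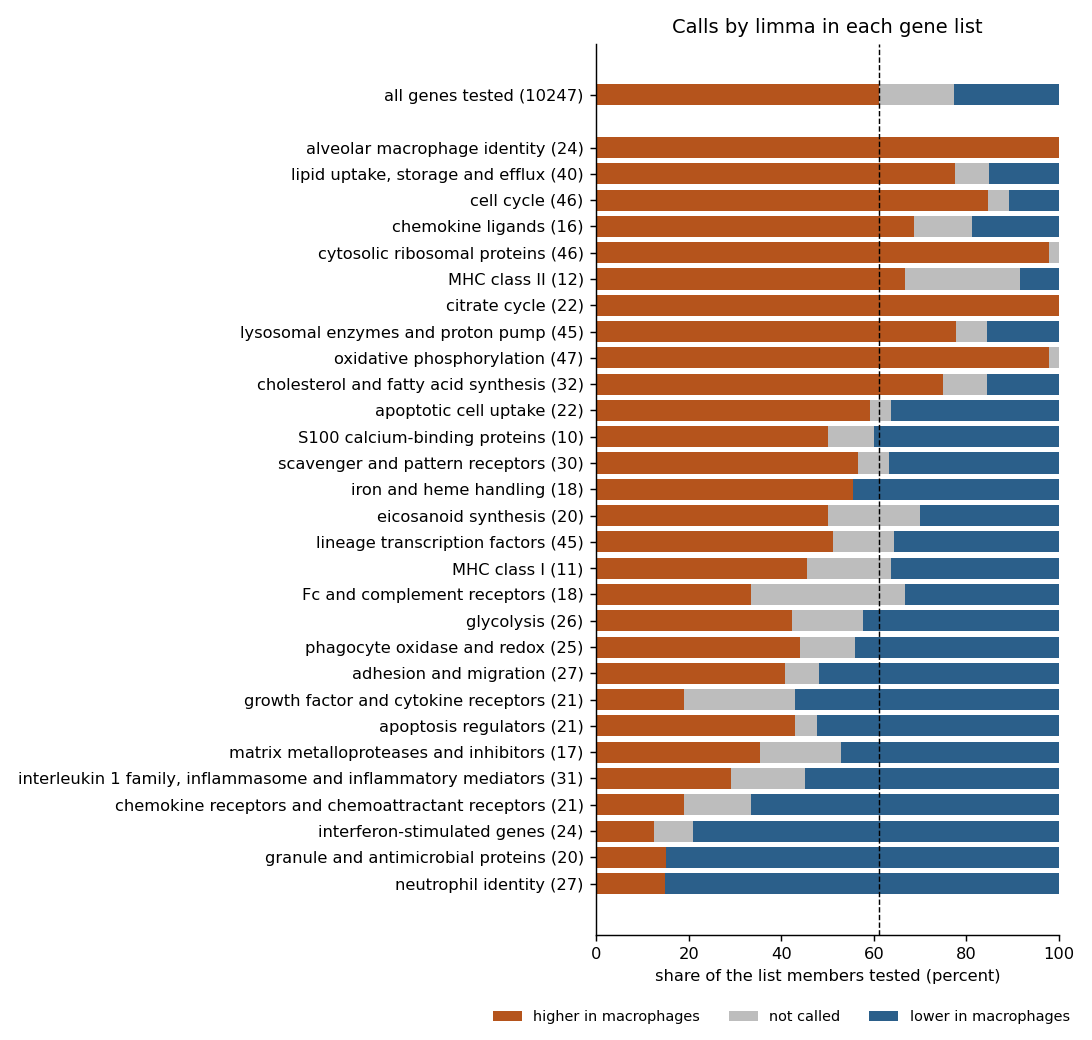
Share of the tested members of each gene list called higher in macrophages, not called, or called lower by limma, ordered by the median log2 difference, with the number tested in brackets and all 10247 genes tested in the top bar. The dashed line marks the 61.2% of all genes that were higher; the alveolar macrophage identity list (24 of 24 higher) and the neutrophil identity list (23 of 27 lower) are the extremes.

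Transcription factors of myeloid lineages were higher in 23 of 45 genes and lower in 16, against 61.2% and 22.6% of all genes tested. The list median was 0.38 against 0.81. The balance depended on scaling, with 19 higher and 19 lower after quantile normalization and 17 higher and 22 lower after upper-quartile scaling, where the median was -0.21. Tfec, a relative of the lysosomal regulator TFEB, had 82.7 and 75.9 FPKM in macrophages, against 0, 0.0242 and 0.123 FPKM in neutrophils (6.26, SE 0.14, limma adjusted p = 3.90e-08). Bhlhe41, which supports self-renewal of alveolar macrophages, had 44.8 and 38.99 FPKM in macrophages, against 1.07, 0.596 and 2.15 FPKM in neutrophils, and Egr2 had 141 and 140.4 FPKM in macrophages, against 6.71, 6.33 and 7.03 FPKM in neutrophils. Along with Pparg these genes were close to 0 or under 10 FPKM in each neutrophil library. Nr1h3, the liver X receptor LXRα, had 27.2 and 24.4 FPKM in macrophages, against 0.8499, 1.52 and 1.03 FPKM in neutrophils, and its partner Rxra had 52.1 and 59.8 FPKM in macrophages, against 4.36, 6.29 and 4.31 FPKM in neutrophils. Klf4 had 288 and 281 FPKM in macrophages, against 30.5, 24.6 and 25.4 FPKM in neutrophils, and Irf8, a factor of monocytes and dendritic cells, had 103 and 81.5 FPKM in macrophages, against 7.82, 6.41 and 12.5 FPKM in neutrophils. Nr1h3, Rxra, Klf4 and Irf8 were all higher in macrophages.

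Members of the C/EBP family differed in opposite directions. Cebpa had 181 and 185 FPKM in macrophages, against 8.66, 9.103 and 8.95 FPKM in neutrophils (4.22, SE 0.10), while Cebpb had 331 and 290.2 FPKM in macrophages, against 728, 881 and 855 FPKM in neutrophils (-1.40, SE 0.13). Cebpe, which drives the late steps of granulocyte maturation, had 0 and 0.333 FPKM in macrophages, against 4.12, 5.09 and 3.81 FPKM in neutrophils, and Gfi1, a repressor needed for neutrophil development, had 0.322 and 0.793 FPKM in macrophages, against 4.97, 10.5 and 7.19 FPKM in neutrophils. Neither of those factors passed 11 FPKM in a neutrophil library, and both were lower in macrophages. Among AP-1 genes Jun had 1091 and 1086 FPKM in macrophages, against 151, 173 and 194 FPKM in neutrophils, and Fosl2 had 89.8 and 89.2 FPKM in macrophages, against 570.0, 559 and 391 FPKM in neutrophils, again with opposite signs (2.66 and -2.47). Junb, with a difference of -0.93, lay on the side of Fosl2, and Fos, with 0.80, at the shift of the median gene.

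Further factors were lower in macrophages. Nr4a1, an early-response nuclear receptor, had 176 and 198 FPKM in macrophages, against 885, 909 and 964 FPKM in neutrophils. Klf2 had 58.8 and 50.2 FPKM in macrophages, against 187, 210.0 and 211 FPKM in neutrophils, and Hif1a, the oxygen-regulated factor, had 18.6 and 20.1 FPKM in macrophages, against 69.4, 63.8 and 71.5 FPKM in neutrophils. Runx1 and Runx3 had opposite signs, at 2.39 and -1.87. Ets1 and Bach2, at -1.36 and -0.87, are also lymphocyte genes, and the neutrophil libraries carried more B cell RNA, as given below. Epas1, Klf6, Etv3, Nfil3, Irf4 and Gata2 did not pass the threshold. Zeb2, Bhlhe40 and Irf5 were higher by 0.38, 0.28 and 0.55, under the shift of the median gene, and their sign changed after upper-quartile scaling.

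**Figure D4:**
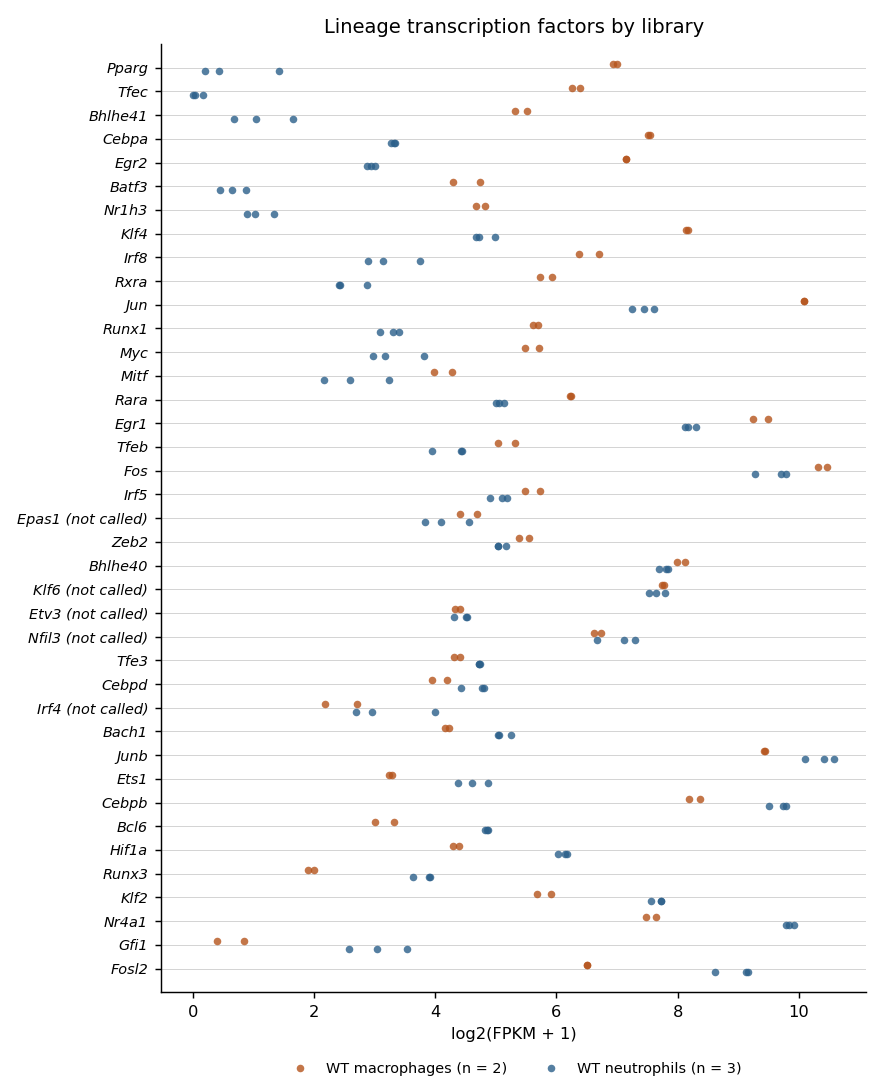
Log2(FPKM + 1) of lineage transcription factors with a mean of at least 5 FPKM in a group, ordered by the difference between groups; each point is 1 library of WT macrophages (n = 2) or WT neutrophils (n = 3). Pparg, Tfec and Bhlhe41 stand at the top with low neutrophil values, and Fosl2, Gfi1 and Nr4a1 at the bottom with the macrophage values on the left.

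The regions just before the transcription start were read for genes that differed by 4 or more on the log2 scale and were not listed at 0, from RefSeq promoters of GRCm38.p6. A promoter of its own was matched for 103 of 173 such genes higher in macrophages and for 102 of 152 lower ones, and for 6202 of the 10247 genes tested. The TATA box letters TATAAA, read on the gene's strand, began 24 to 40 bases before the start in 3 of the 103 (2.91%), in 9 of the 102 (8.82%), in 78 of the 6202 (1.26%) and in 538 of all 22862 promoters of the table (2.35%). That window was chosen after the positions were seen. Within 250 bases before the start the same letters occurred in 4.85%, 12.7%, 3.81% and 8.68% of the same sets, and the median number of CpG pairs was 11, 6, 17 and 5. These counts are a description, and no test was made. The starts are those of RefSeq and can differ from the GENCODE starts given above, as for S100a8. The 60 bases before the start are shown, 5′ to 3′ on the gene's strand, for the 3 macrophage genes and for 6 of the 9 neutrophil genes, to let the placement of the motif be seen. Capitals mark TATAAA.
Cebpa: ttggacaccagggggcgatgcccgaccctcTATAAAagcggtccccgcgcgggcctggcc
Prdx1: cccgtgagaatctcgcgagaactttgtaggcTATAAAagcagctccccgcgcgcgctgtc
Rnd3: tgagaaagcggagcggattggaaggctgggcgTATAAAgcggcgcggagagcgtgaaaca
S100a8: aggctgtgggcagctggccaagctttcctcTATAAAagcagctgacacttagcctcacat
Il1b: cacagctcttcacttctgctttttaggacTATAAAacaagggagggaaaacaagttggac
Padi4: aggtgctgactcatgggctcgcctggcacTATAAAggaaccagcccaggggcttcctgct
Clec4e: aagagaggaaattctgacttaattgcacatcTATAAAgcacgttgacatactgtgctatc
Cxcl3: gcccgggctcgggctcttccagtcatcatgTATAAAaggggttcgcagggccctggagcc
Irf7: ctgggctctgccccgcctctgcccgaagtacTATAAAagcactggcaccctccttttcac
The macrophage genes lie at chr7:35119233-35119292 on the plus strand (Cebpa), chr4:116685539-116685598 on the plus strand (Prdx1) and chr2:51149112-51149171 on the minus strand (Rnd3). The neutrophil genes lie at chr3:90669011-90669070, plus (S100a8), chr2:129371140-129371199, minus (Il1b), chr4:140774204-140774263, minus (Padi4), chr6:123289872-123289931, minus (Clec4e), chr5:90786041-90786100, plus (Cxcl3) and chr7:141266425-141266484, minus (Irf7). The letters began 30 bases before the start in Cebpa, S100a8 and Cxcl3, 29 in Prdx1, Clec4e and Irf7, 31 in Il1b and Padi4, and 28 in Rnd3. The whole 250 bases held 22, 15 and 16 CpG pairs in Cebpa, Prdx1 and Rnd3, against 2 to 7 in the neutrophil genes shown. Of the 3 neutrophil genes not shown, H2-Q10 held 12 CpG pairs with the letters 28 bases before the start, Cd177 held 4 with the letters at 40 bases, and Cd300lb held 3 with the letters at 30. Rnd3, a small GTPase that loosens actin fibres and was chosen for its promoter, had 82.8 and 83.9 FPKM in macrophages, against 0.399, 0.566 and 0.639 FPKM in neutrophils.

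RNA of other lung cells was present in all 5 libraries and differed between them. Sftpc, which encodes surfactant protein C, had 649 and 486 FPKM in macrophages and 699, 441 and 1764 FPKM in neutrophils, and Scgb1a1, the club cell secretoglobin, had 358 and 665 FPKM in macrophages and 1012, 179 and 1142 FPKM in neutrophils. Neither passed the threshold, both overlapped between groups, and the 13 type II markers summed to 906 and 695 FPKM in macrophages and to 998, 645 and 2300.3 FPKM in neutrophils. Of those 13 genes 2 were higher and 1 lower as deposited, 1 and 5 with quantile normalization, and 1 and 6 with upper-quartile scaling. Of 18 endothelial markers 2 were higher and 3 lower as deposited, 1 and 14 with quantile normalization, and 1 and 11 with upper-quartile scaling. Of 13 fibroblast and matrix markers 1 was higher and 8 lower as deposited, and 1 and 9 under each of those scalings. How many of these markers were lower in macrophages thus depended on the scaling for type II and endothelial cells. Of all genes tested, 61.2% were higher and 22.6% lower as deposited, 42.0% and 36.5% with quantile normalization, and 47.5% and 32.3% with upper-quartile scaling. Neutrophil replicate 7 was the highest library for type II, club and fibroblast markers. The part of these cells in other differences was not tested.

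B cell markers were all lower in macrophages: 9 of 9 tested genes passed, against 22.6% of all genes tested. Their median was -2.01 against 0.81. They summed to 30.3 and 38.2 FPKM in macrophages and to 224, 193 and 281 FPKM in neutrophils. Cd79a, a chain of the B cell receptor complex, had 10.8 and 13.2 FPKM in macrophages, against 76.5, 60.99 and 95.3 FPKM in neutrophils. Ets1 and Bach2 are also expressed by B cells, and the part of B cells in their values was not tested.

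Dendritic cell markers were on the other side, with 9 of 11 higher in macrophages, 0 lower and a median of 2.62. All genes tested had 61.2% higher, 22.6% lower and a median of 0.81. The marker counts were 8 and 2 with quantile normalization and 9 and 2 with upper-quartile scaling. These markers summed to 223 and 244 FPKM in macrophages and to 46.1, 39.0 and 81.4 FPKM in neutrophils. Ccl17, Flt3, Itgae, Batf3 and Ccl22 are members of this list as well as of lists above, and their part from dendritic cells within the CD11c+ gate was not tested. Among 8 monocyte markers 5 were higher and 2 lower as deposited, a balance that was 2 and 3 with quantile normalization and 3 and 3 with upper-quartile scaling. As deposited this was close to the background of 61.2% higher and 22.6% lower. That background was 42.0% and 36.5% with quantile normalization and 47.5% and 32.3% with upper-quartile scaling. The marker counts below should be read against the same shares. Fn1, fibronectin, was chosen after its values were seen and had 127 and 179 FPKM in macrophages, against 4.13, 5.23 and 4.78 FPKM in neutrophils. In the same monocyte list Nr4a1 and Treml4 were the 2 lower genes, at -2.29 and -2.07, and Csf1r was not called. Fn1 was also the 1 higher gene of the fibroblast list, in which 8 of 13 were lower. Of 14 T and NK markers 1 was higher and 2 lower as deposited, 1 and 10 with quantile normalization, and 1 and 5 with upper-quartile scaling. Cd2, an adhesion receptor, was the higher gene as deposited, with 244 and 256 FPKM in macrophages, against 10.5, 8.57 and 16.5 FPKM in neutrophils, while the CD3 chains stayed under 8 FPKM in all 5 libraries. Vegfa, an angiogenic factor listed here among type I cell markers and chosen after its values were seen, had 8.24 and 7.75 FPKM in macrophages, against 520.2, 596 and 373 FPKM in neutrophils, a difference of -5.76 (SE 0.19). The 9 type I markers tested, Vegfa included, were higher in 2 and lower in 2 as deposited, 1 and 5 with quantile normalization, and 0 and 4 with upper-quartile scaling. Markers of eosinophils, basophils and mast cells summed to at most 18.3 FPKM in a library. Of 6 tested 1 was higher and 4 lower, among them the eosinophil receptor gene Ccr3 at -2.22 and Alox15 at -2.24. Ms4a2, a basophil and mast cell gene, was at 0 in both macrophage libraries and in neutrophil replicates 5 and 7, and Tpsb2, a mast cell gene, in both macrophage libraries and neutrophil replicate 7.

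**Figure D5:**
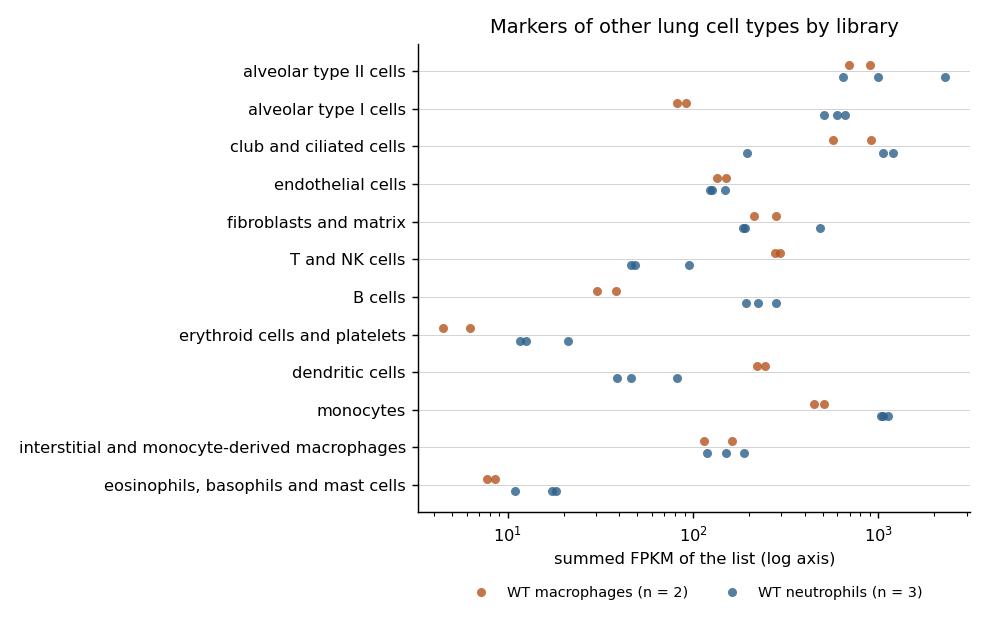
Summed FPKM of marker lists of other lung cell types in each library, on a log axis; each point is 1 library of WT macrophages (n = 2) or WT neutrophils (n = 3). B cell markers lie at 30.3 to 38.2 FPKM in macrophages and 193 to 281 FPKM in neutrophils, dendritic cell markers the other way round, and Vegfa makes up most of the type I sum in neutrophils.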

How the data were processed

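RNA was sequenced from sorted lung cells, and 5 of 27 libraries were analysed, grouped by their cell type and source labels. Per the submitters' processing notes, the authors used CASAVA 1.8.2 for base calls, TopHat2 for alignment to mm10 (GRCm38), and Cufflinks and Cuffdiff for expression. The deposited values are FPKM, used as deposited, without counts, so no counting interval is given. After adding 1 FPKM, values were taken to log2, and genes that reached 1 FPKM in 2 or more of the 5 libraries were tested with limma 3.58.1 in R 4.3.3 (intensity trend, moderated, Benjamini-Hochberg, threshold 0.05, macrophages minus neutrophils, no covariate). Relative depth was read from the spacing of the lowest values, which is rough: the spacing of neutrophil replicate 6 was backed by 33 genes, and the next best spacing by 24.

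The table pairs mouse symbols with human ones, and genes that are not in it were not analysed here. A gene was set apart as listed at 0 if every library of a group was at exactly 0 while the other averaged at least 5 FPKM; Il1r2 and Hdc, below that level, are named with their zeros as identity list members. Members, lists and tests were chosen with earlier results of these data known. Named were the 12 largest differences each way among called genes whose groups did not overlap, with a mean of at least 5 FPKM in the higher group and not listed at 0, leaving out pseudogenes, predicted genes, antigen receptor segments, olfactory receptors and small RNAs. Added were the 4 largest called members of each function list, the gate genes and markers, members of the 2 identity lists and the transcription factor list, the highest member of each marker list and genes listed at 0. Other genes were chosen after their values were seen, as the text says. Some genes that meet this rule are not reported here. No set test was run.

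The fit was tested on simulated data with 200 changed genes of at least 5 FPKM among 10247. Changes of 1 on the log2 scale were recovered in 71% and changes of 2 in 98%, with 6 false calls. In the data 83.8% of the genes tested were called, far more than were changed here, so these rates may not carry over. Alternatives were another pseudocount (0.1 or 5), no filter or one of 5 FPKM, quantile, upper-quartile or same-sum scaling, a fit of all 10 groups, robust moderation, no trend, each library left out, and genes listed at 0 or at least 20 times higher in another sorted WT population left out. Leaving out every gene at 0 in a whole group, and genes at least 3 times higher in WT total lung, was added after the data were seen. Positions came from GENCODE M21 on GRCm38 and promoters from RefSeq. Python 3.11.15 with matplotlib 3.10.9 was used for the figures.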

Additional observations from a re-analysis of the deposited data

How the results depend on the processing

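Many of the 225 named genes were chosen for their large differences, so their stability says little about genes with small ones. Of 4204 values of the named genes under 19 alternatives, 4130 kept their direction and their side of the threshold. Another 42 lost the call, 15 gained one and 17 changed sign. Those that changed sign were Csf1r (-0.0617), Epas1 (-0.22), Mki67 (-0.11), C1qb (-0.58) and Rps9 (0.29) after quantile normalization, Bhlhe40 (-0.32), Csf1r (-0.51), Cyba (-0.0285), Epas1 (-0.19), Irf5 (-0.0426), Klf6 (-0.49), Zeb2 (-0.21), C1qb (-0.23) and Itgb2 (-0.51) after upper-quartile scaling, C1qb without macrophage replicate 2 (-1.13) or neutrophil replicate 5 (-0.24), and Etv3 (0.0645) after scaling to the same sum; the cause was not tested. The count of lower genes was 3740 after quantile normalization, in place of 2317, and no other alternative moved a count of all genes by over 1.5 times. With 1 library left out, 4714 to 6240 genes were higher and 1988 to 2336 lower; without a macrophage replicate, 9102 and 9114 genes passed the filter in place of 10247, and the lone macrophage library was assumed to vary like the neutrophils. Of 1102 counts of members of the function and identity lists under an alternative, 27 moved by over 1.5 times, 12 of them under quantile or upper-quartile scaling and 8 without a macrophage replicate. With 2 macrophage libraries, FPKM without read counts and genes listed at 0 by the authors' software, small differences and absence of a transcript could not be settled. No paired analysis was possible because the labels do not say whether macrophages and neutrophils came from the same mice. The titles number macrophages 1 and 2 and neutrophils 5 to 7 in 1 running series over the WT populations, so they cannot show a pairing.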

Other observations

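The macrophage libraries differed from each other in a few genes. Arg1, arginase 1, reached 1 FPKM in 1 library only and was not tested, with 0.182 FPKM in macrophage replicate 1 and 44.4 FPKM in replicate 2, against 0.0851, 0.399 and 0.406 FPKM in neutrophils. Ccl24, an eosinophil-attracting chemokine, was likewise not tested, with 0.220 and 32.7 FPKM in macrophages, against 0, 0.724 and 0.0918 FPKM in neutrophils. Mmp12, the macrophage elastase, had 3.902 and 25.4 FPKM in macrophages, against 3.54, 3.42 and 2.48 FPKM in neutrophils, and the complement gene C1qb had 0.631 and 8.82 FPKM in macrophages and 1.01, 2.03 and 6.401 FPKM in neutrophils. These genes were chosen after their values were seen, and each was higher in macrophage replicate 2.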
